A study of Homo sapiens with 3 samples.

Results

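ANKRD17 and ANKHD1 are paralogous human genes, and their contact with the RNA-binding protein MATR3 was read from lists of PAR-CLIP clusters. A cluster is a stretch of transcript covered by overlapping sequencing reads that carry T-to-C changes. The clusters described here are those to which the authors gave the gene name ANKRD17 or ANKHD1. They number 163 of 115227 clusters in all: 121 of 87230 in wild-type (WT) replicate 1, 42 of 27155 in WT replicate 2, called replicate 1 and replicate 2 below, and 0 of 842 in the MATR3 knockout (KO) library. ANKRD17 was selected on its measured number of clusters in these lists, so its cluster number is given as a description with no test, and its paralog serves as the contrast.

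In PAR-CLIP, a form of crosslinking and immunoprecipitation, cells take up 4-thiouridine, a photoactivatable ribonucleoside, and UV light crosslinks protein to RNA, after which the bound RNA is sequenced. The study applied it to MATR3 in HAP1, a line with a nearly haploid human genome that descends from the chronic myeloid leukaemia line KBM-7. The libraries were 2 replicates of WT HAP1 cells and 1 library of a MATR3 knockout HAP1 line, the study's negative control. How the knockout was made is not given in the sources used here. Complexes were taken up on anti-FLAG beads in every library although the labels record no tag on MATR3, RNA was trimmed with RNase T1, an enzyme that cuts after G, and nothing in the labels says whether the WT replicates came from separate cultures. The identity of the line was not checked against marker genes, because clusters of a bound protein do not measure transcript levels.

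As background, MATR3 (matrin 3) is a nuclear protein with RNA recognition motifs and zinc fingers, known for binding pyrimidine-rich stretches in introns and for effects on splicing. ANKRD17 and ANKHD1 encode very large proteins built of long arrays of ankyrin repeats followed by a KH domain, an RNA-binding fold. They are the human counterparts of the Drosophila protein Mask, a cofactor of Yorkie, the fly form of the Hippo pathway's transcriptional coactivator YAP1. ANKRD17 has also been linked to entry into S phase and to antiviral signalling, and transcription that runs from ANKHD1 into its neighbour EIF4EBP3, an inhibitor of translation initiation, gives transcripts that annotations list as the gene ANKHD1-EIF4EBP3.

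The positions that both WT libraries found are shown first, because they are the sequences of ANKRD17 seen more than once. Each line gives the replicate 1 cluster 5′ to 3′ on the transcript strand, in DNA letters, with capitals for the stretch that the overlapping replicate 2 cluster also covers. Positions are on hg38, and the name of each line is its distance from the RefSeq 5′ end of the gene. The 8 ANKRD17 pairs shown rank first by the geometric mean of their reads, and the one ANKHD1 pair follows. All lie in introns by the authors' annotation, ANKRD17 on the minus strand of chromosome 4 and ANKHD1 on the plus strand of chromosome 5.
ANKRD17 15.4 kb, chr4:73243395-73243429, minus: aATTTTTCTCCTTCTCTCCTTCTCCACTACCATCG
ANKRD17 150 kb, chr4:73108596-73108626, minus: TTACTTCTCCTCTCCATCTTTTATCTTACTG
ANKRD17 15.5 kb, chr4:73243291-73243333, minus: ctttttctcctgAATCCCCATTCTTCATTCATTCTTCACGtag
ANKRD17 15.7 kb, chr4:73243062-73243112, minus: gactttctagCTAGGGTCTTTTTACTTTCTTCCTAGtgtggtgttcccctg
ANKRD17 23.0 kb, chr4:73235805-73235844, minus: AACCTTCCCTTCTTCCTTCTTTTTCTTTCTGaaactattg
ANKRD17 6.50 kb, chr4:73252286-73252344, minus: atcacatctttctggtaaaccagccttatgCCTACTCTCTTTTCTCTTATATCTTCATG
ANKRD17 4.98 kb, chr4:73253801-73253835, minus: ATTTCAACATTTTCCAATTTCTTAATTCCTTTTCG
ANKRD17 17.6 kb, chr4:73241145-73241178, minus: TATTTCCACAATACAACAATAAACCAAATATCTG
ANKHD1 64.2 kb, chr5:140465996-140466031, plus: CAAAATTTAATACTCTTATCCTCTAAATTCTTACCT

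The pair at 15.4 kb held 227 reads in replicate 1 and 495 in replicate 2, the most of any ANKRD17 cluster in the second library. It is a run of T and C broken by few other bases, and 85.3% of the shared stretch is pyrimidine. A T-to-C change was carried by 72.7% of its reads in replicate 1 and by 36.0% in replicate 2, the lowest share of any ANKRD17 cluster in the second library. The pair at 150 kb had 156 and 211 reads, with changes in 64.1% and 73.0% of them, and both libraries placed its ends at the same bases. At 15.5 kb the reads were 202 and 108, and at 15.7 kb they were 218 and 97. Together with the 15.4 kb pair these lie close to each other.

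The pair at 23.0 kb, with 188 and 109 reads, had the most pyrimidine-rich shared stretch of all, at 90.3%. At 6.50 kb the shared stretch was only the 3′ part of a longer replicate 1 cluster, and the reads were 166 and 70. The 4.98 kb pair held 162 and 59 reads and had identical ends in both libraries. The pair at 17.6 kb also had identical ends, with 55 and 98 reads, but its sequence is 50% pyrimidine and holds many A residues, the lowest pyrimidine content of any shared ANKRD17 stretch. The ANKHD1 pair had 33 reads in replicate 1 and 129 in replicate 2, with a T-to-C change in 90.9% and 100% of them, and its replicate 2 cluster ran 1 base further, to a G.

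Depth sets how these lists can be read. The tables hold reads within clusters alone, 2668797 in replicate 1, 1558995 in replicate 2 and 224142 in KO, so how deeply each library was sequenced is unknown. The weakest cluster in every library had 5 reads. Reads per distinct read sequence over all clusters were 7.58 in replicate 1, 17.9 in replicate 2 and 30.7 in KO, and no molecular identifiers are given. All intervals below, 95% Wilson intervals, therefore cover counting error only. They treat the clusters of a gene as independent, although some lie side by side. With 2 WT libraries against 1 KO library no test between genotypes was made. The KO library, with 842 clusters, also differed from the WT lists in kind, with 64.1% of its clusters intronic against 84.1% and 83.1%, and a median of 243 reads per cluster against 20 and 39.

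ANKRD17 had 110 clusters in replicate 1 and 40 in replicate 2 (mean 75 ± 49.5, SD, n = 2), and 0 in KO. Those were 0.126% and 0.147% of all clusters in the WT lists. By cluster number it ranked 12 of 9189 named genes in replicate 1 and 15 of 6043 in replicate 2, where the median gene had 4 and 2 clusters. ANKHD1 had 11 clusters, 2 and 0 (WT mean 6.50 ± 6.36, SD, n = 2), at ranks 2174 and 2808. The read sums were 6108 and 2446 for ANKRD17, 0.229% and 0.157% of cluster reads, and 265 and 136 for ANKHD1. ANKRD17 was high in both WT libraries on either measure and ANKHD1 was far lower in both.

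No cluster of either gene was listed in the KO library. At their WT shares, a list of 842 clusters would hold 1.06 to 1.24 clusters of ANKRD17 and 0.0620 to 0.106 of ANKHD1. A loss of clusters in KO at either gene was therefore not detectable at this depth as a property of the gene, apart from the drop in the number of clusters over the whole library. No upper limit is given for these zeros, since the lists hold only clusters above a minimum.

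Gene length was taken into account next, since long genes offer more intron to bind. ANKRD17 spans 185.423 kb and ANKHD1 138.017 kb in RefSeq. ANKRD17 carried 59.3 clusters per 100 kb in replicate 1 and 21.6 in replicate 2. ANKHD1 carried 7.97 and 1.45. The ratio of the densities was 7.44 in replicate 1 and 14.9 in replicate 2 (mean 11.2 ± 5.26, SD, n = 2), resting on only 2 ANKHD1 clusters in the latter. When every cluster on the gene's strand inside the ANKHD1 interval was counted, whatever name the authors gave it, ANKHD1 had 14 and 3 clusters and the ratio was 5.85 and 9.92. ANKRD17 was the denser gene in both libraries under both counts.

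Among 3356 protein-coding genes of at least 100 kb, ANKRD17 ranked 4 by density in replicate 1 and 11 in replicate 2. ANKHD1 ranked 927 and 1283. The median long gene had 2.38 and 0.633 clusters per 100 kb, so ANKHD1 lay above the median in both libraries while far below its paralog. Of these long genes 31.1% and 41.8% had no cluster. Clusters covered 2.15% of the length of ANKRD17 in replicate 1 and 0.602% in replicate 2, against 0.261% and 0.0435% for ANKHD1.

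**Figure D1:**
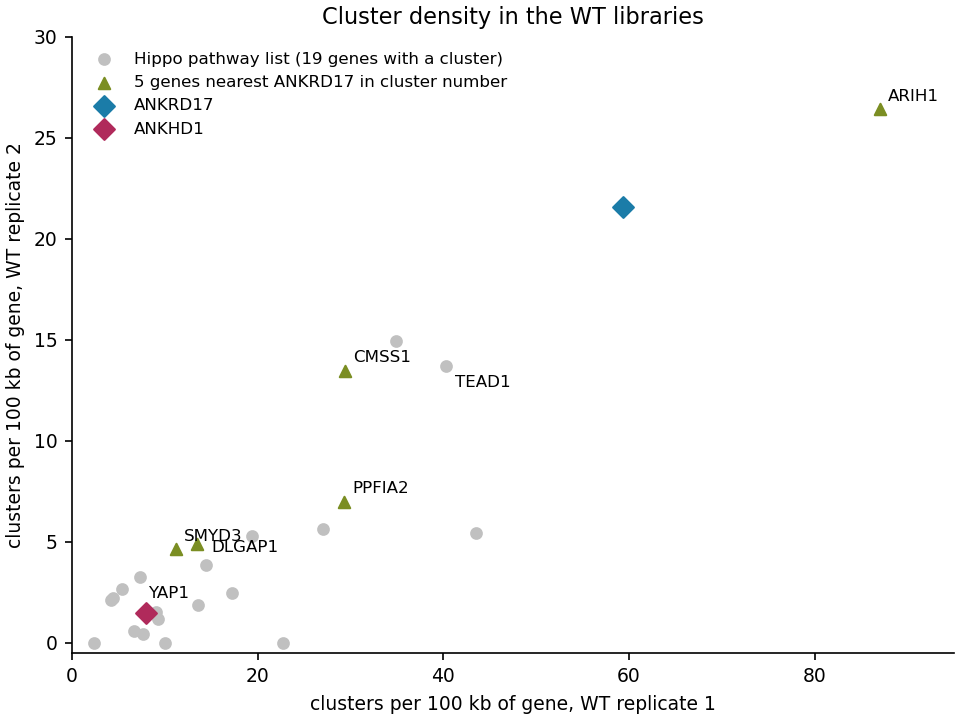
Clusters per 100 kb of gene in replicate 1 (horizontal axis) and replicate 2 (vertical axis) for ANKRD17, ANKHD1, the 5 genes nearest ANKRD17 in cluster number and the 19 Hippo pathway genes with a cluster; each point is 1 gene. ANKRD17 sits at 59.3 and 21.6, above every Hippo gene, and ANKHD1 at 7.97 and 1.45, among the low ones.

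The clusters of ANKRD17 were nearly all intronic. The authors' annotation put 109 of 110 in introns in replicate 1, or 99.1% (95 to 99.8), and 40 of 40 in replicate 2, or 100% (91.2 to 100). All 13 ANKHD1 clusters were intronic as well. Among clusters named for any protein-coding gene of RefSeq, the intronic share was 94.9% and 93.6%. The ANKRD17 interval starts close to that background in replicate 1 and holds it in replicate 2, so the intronic share of ANKRD17 was near that of protein-coding genes. The exception was a cluster in the 3′ UTR at chr4:73075977-73076007, close to the end of the gene and 183 kb from its start. It held 79 reads of 6 distinct sequences in replicate 1, was 96.8% pyrimidine, and had a T-to-C change in 53.2% of reads at 4 positions. No cluster was listed there in replicate 2.

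**Figure D2:**
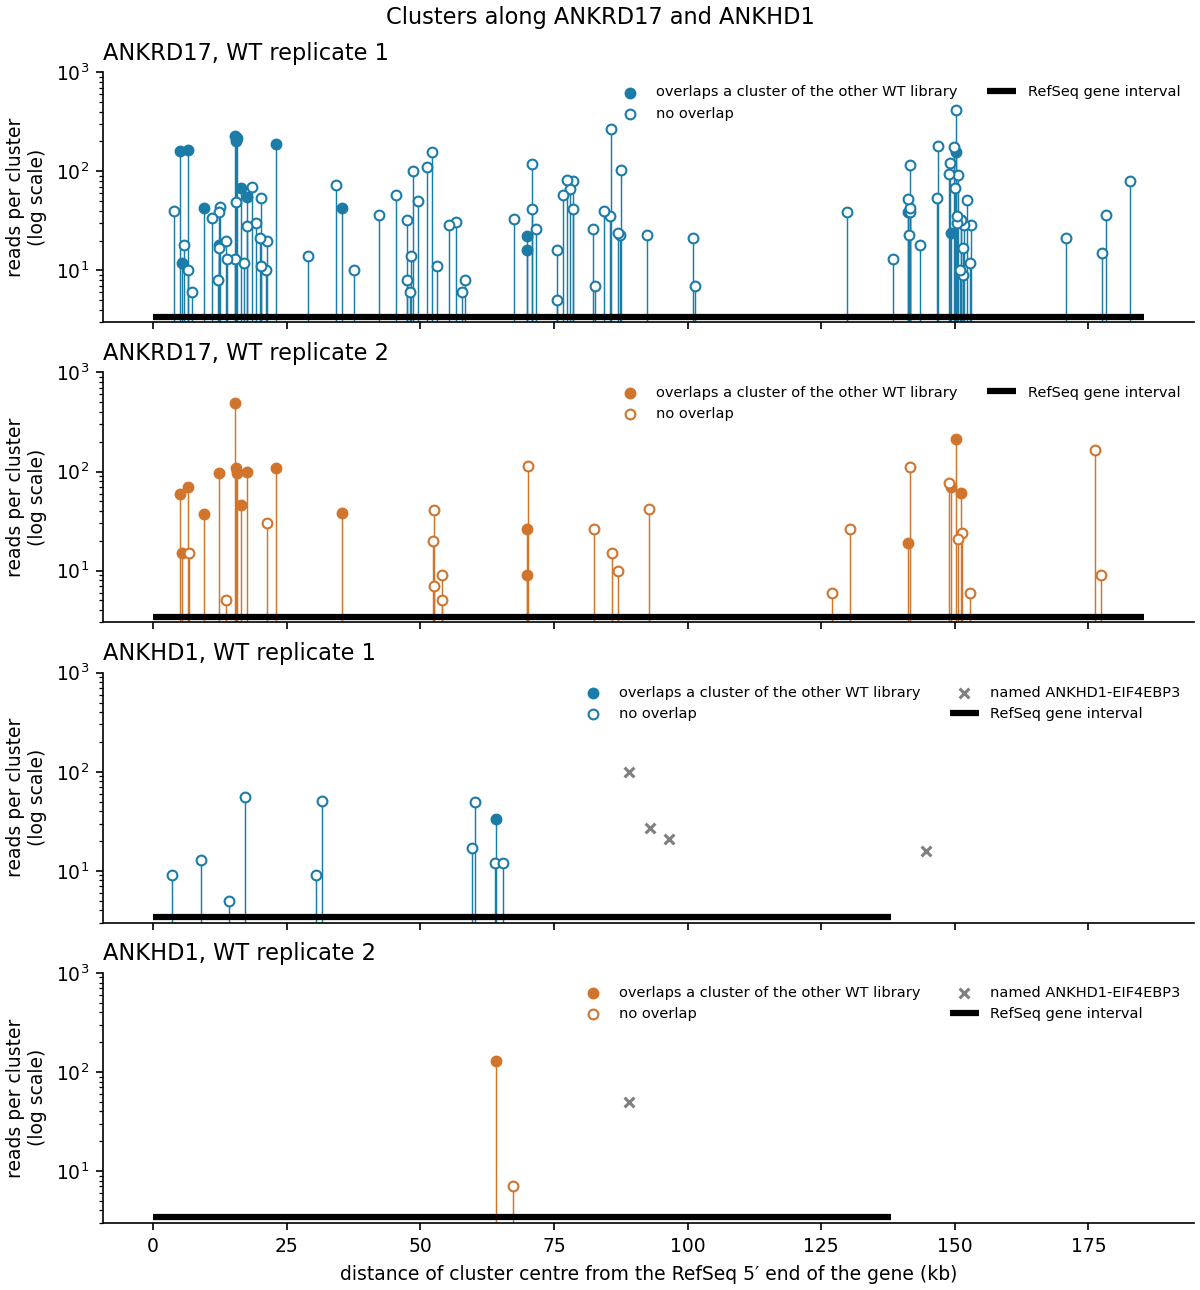
Clusters along ANKRD17 (upper panels) and ANKHD1 (lower panels) in each WT library; the horizontal axis is the distance in kb from the RefSeq 5′ end of the gene, the vertical axis the reads of a cluster on a log scale. Filled points overlap a cluster of the other WT library, open points do not, crosses are clusters named ANKHD1-EIF4EBP3 and the black bar is the gene; ANKRD17 clusters crowd near the start and at 140 to 160 kb in both libraries.

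Along ANKRD17 the clusters were not evenly spread, and the uneven pattern was alike in both libraries. The first 30 kb, 16.2% of the gene, held 34 of 110 clusters in replicate 1 (30.9%) and 14 of 40 in replicate 2 (35%), which is 113 and 46.7 per 100 kb. A stretch from 140 to 160 kb, 10.8% of the gene, held 28 (25.5%) and 9 (22.5%), or 140 and 45 per 100 kb. Between them, the stretch from 90 to 140 kb, 27.0% of the gene, held only 5 and 3 clusters, 10 and 6 per 100 kb. These limits were set after the positions were seen. The dense stretches and the sparse one appear in each library taken alone.

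The reads followed the clusters. The first 30 kb took 31.8% of ANKRD17 reads in replicate 1 and 52.4% in replicate 2, and the stretch from 140 to 160 kb took 32.7% and 24.4%. In replicate 2 the cluster at 15.4 kb alone held 495 of the 2446 ANKRD17 reads. The sparse stretch from 90 to 140 kb took 1.69% and 3.03%. From 30 to 60 kb there were 18 and 6 clusters, from 60 to 90 kb 21 and 6, and beyond 160 kb 4 and 2. In bins of 10 kb the highest count was 19 clusters, from 10 to 20 kb, in replicate 1, and 7 in the same bin in replicate 2. Over the 19 bins the cluster numbers of the libraries had a Spearman correlation of 0.722 and a Pearson correlation of 0.804, given as a description over bins of 1 gene that both libraries read from the same sequence.

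RefSeq lists a second start for ANKRD17 transcripts at 35.741 kb. The part of the gene upstream of it, which only the longer transcripts hold, had 36 clusters in replicate 1 and 15 in replicate 2, or 101 and 42.0 per 100 kb. The part downstream, common to both, had 74 and 25, or 49.4 and 16.7 per 100 kb. The upstream part was the denser in both libraries, and 12 of the 18 overlapping pairs lay in it.

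Spacing and extent differed between the paralogs. The median distance between neighbouring ANKRD17 clusters was 0.562 kb in replicate 1 and 1.18 kb in replicate 2, and the largest gap was 28.5 and 34.1 kb. Its clusters ran from 3.96 to 183 kb in the first library and from 4.98 to 177 kb in the second. The clusters named ANKHD1 lay in the first part of that gene alone, from 3.63 to 65.4 kb in replicate 1 and at 64.2 and 67.4 kb in replicate 2. Further along ANKHD1 the clusters carry the name of the read-through gene, and where these genes overlap a cluster could belong to either.

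The clusters named ANKHD1-EIF4EBP3 numbered 4 in replicate 1, with 163 reads, 1 in replicate 2, with 50 reads, and 0 in KO. In replicate 1, 3 of the 4 lie inside the RefSeq interval of ANKHD1, and the remaining one, at chr5:140546351-140546382 with 16 reads, lies past it. All were intronic. The strongest pair of neighbours shows how calls in separate libraries can abut: the replicate 1 cluster of 99 reads ends at the base before the replicate 2 cluster of 50 reads begins. Their sequences are given because together they form 1 unbroken stretch that counts as unshared under the overlap rule.
Replicate 1, chr5:140490903-140490945, plus: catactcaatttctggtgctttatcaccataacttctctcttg
Replicate 2, chr5:140490946-140490984, plus: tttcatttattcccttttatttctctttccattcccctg

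The strength of single clusters was compared next. ANKRD17 clusters held 5 to 415 reads in replicate 1, with a median of 32.5 and quartiles of 17 and 64.8, and 5 to 495 in replicate 2, with a median of 33.5 and quartiles of 15 and 81.3. Intronic clusters of all genes had medians of 20 and 38 reads. The ANKRD17 median was thus above the intronic one in replicate 1 and below it in replicate 2. ANKHD1 clusters held 5 to 55 reads in replicate 1, with a median of 13, and 7 and 129 in replicate 2. Median cluster length was 35 nt and 28 nt in ANKRD17 against 33 nt and 32 nt in introns of all genes.

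The strongest clusters are shown to complete the picture, since some were seen in 1 library only. The largest ANKRD17 cluster of replicate 1, at 415 reads, 44 distinct sequences and 15 converted positions, was 72 nt long, had a T-to-C change in 58.1% of reads and no overlapping partner, although it lies next to the shared 150 kb position. The cluster of 269 reads, with changes in 81.8% of them, also had no partner. In replicate 2 the cluster of 166 reads was 93.9% pyrimidine, had changes in 94.0% of reads and lay 1186 nt from the nearest replicate 1 cluster. The strongest ANKHD1 clusters, of 55, 51 and 49 reads in replicate 1, were of the same kind but weaker, and none had a partner.
ANKRD17, replicate 1, chr4:73108509-73108580, minus: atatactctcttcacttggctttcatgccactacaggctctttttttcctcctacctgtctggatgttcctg
ANKRD17, replicate 1, chr4:73173091-73173123, minus: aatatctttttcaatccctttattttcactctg
ANKRD17, replicate 2, chr4:73082488-73082520, minus: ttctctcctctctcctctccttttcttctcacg
ANKHD1, replicate 1, chr5:140419080-140419117, plus: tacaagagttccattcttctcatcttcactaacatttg
ANKHD1, replicate 1, chr5:140433404-140433440, plus: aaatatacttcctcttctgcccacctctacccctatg
ANKHD1, replicate 1, chr5:140461975-140462005, plus: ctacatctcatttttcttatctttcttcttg

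Sharing between the WT libraries was measured as overlap of 1 nt or more on one strand. In replicate 2, 18 of 40 ANKRD17 clusters overlapped one of replicate 1, or 45% (30.7 to 60.2), against 20.3% of intronic clusters and 19.5% of all clusters. In replicate 1, 18 of 110 overlapped one of replicate 2, or 16.4% (10.6 to 24.4), against 6.19% of intronic and 6.00% of all clusters. Both intervals lie above the background of their library, given as a description and not as a test. ANKRD17 was selected on its cluster number, and clusters of 1 gene are not independent. With at least 3 converted positions per cluster, the replicate 2 share was 5 of 12, or 41.7% (19.3 to 68.0), an interval that holds the intronic 25.3%. Both shares count the same 18 pairs, over 40 and over 110 clusters. They are values of the whole gene, and 11 of the 18 pairs lay in its first 30 kb. ANKHD1 had 1 of 2 and 1 of 11 clusters shared, too few to set against the background.

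By reads the sharing of ANKRD17 was larger. Shared clusters held 27.7% of the ANKRD17 reads of replicate 1 and 68.0% of those of replicate 2, against 13.2% and 26.8% in introns of all genes. The replicate 2 value includes the cluster at 15.4 kb, with 495 of 2446 reads. A shared ANKRD17 cluster had a median of 49 reads in replicate 1, against 30.5 for an unshared one, and 65 against 20.5 in replicate 2. Over all introns the share was higher among clusters of many reads, so the shares were also set side by side within classes of read number.

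**Figure D3:**
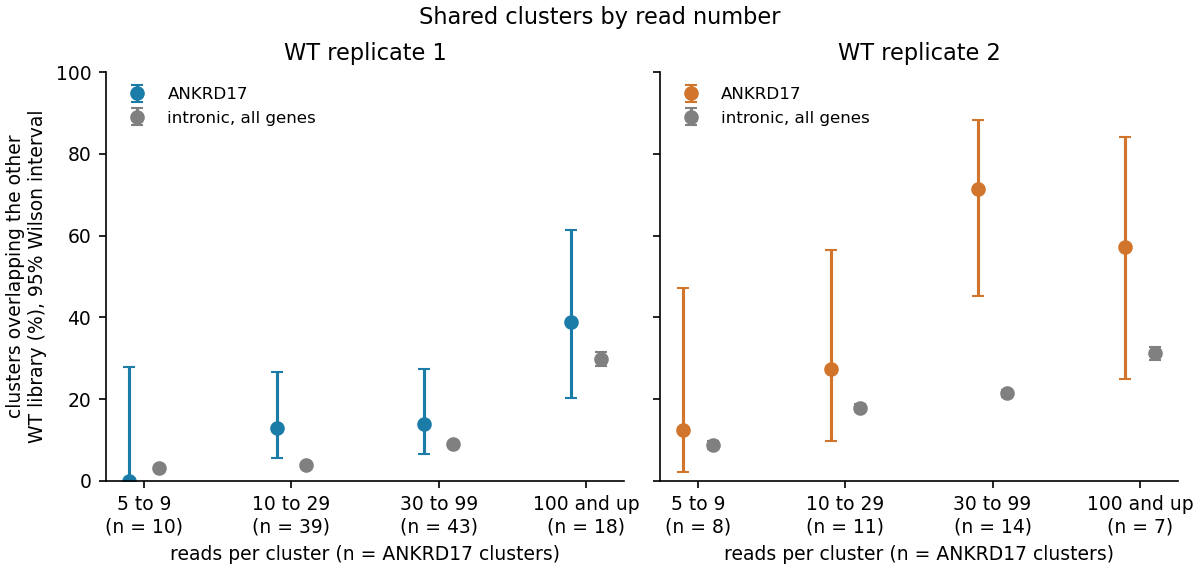
Share of clusters that overlap a cluster of the other WT library (vertical axis, %) by reads per cluster (horizontal axis), for ANKRD17 (coloured) and intronic clusters of all genes (grey), with 95% Wilson intervals. In replicate 2 the ANKRD17 share is 71.4% (45.4 to 88.3) at 30 to 99 reads, where introns of all genes have 21.4%. At the same read number in replicate 1 it is 14.0% (6.56 to 27.3), an interval that holds the intronic 9.13%. All ANKRD17 classes have wide intervals.

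Within classes, replicate 2 clusters of 30 to 99 reads stood furthest from the background. In ANKRD17, 10 of 14 such clusters were shared, or 71.4% (45.4 to 88.3), against 21.4% of intronic ones. At 100 reads and more, 4 of 7 were shared, or 57.1% (25 to 84.2), against 31.2%, an interval that holds the background. At 10 to 29 reads it was 3 of 11 against 17.9%, and at 5 to 9 reads 1 of 8 against 8.73%. In replicate 1, 7 of 18 clusters of at least 100 reads were shared, or 38.9%, against 29.8%. The classes below that had 6 of 43 against 9.13%, 5 of 39 against 3.92% and 0 of 10 against 3.15%. Of these, only the class of 10 to 29 reads, at 12.8% (5.60 to 26.7), had an interval above its background.

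Density moved together with sharing across genes. Among the 127 genes with at least 20 clusters in replicate 2, ANKRD17 ranked 8 by the share of clusters found again. The median gene of that set had 21.7%, with quartiles of 14.3% and 30.7% and a range from 0% to 61.9%. Over the 123 of them with a RefSeq length, this share had a Spearman correlation of 0.744 with cluster density in replicate 1, across genes read in the same libraries. ANKRD17 is dense in that library, and the part of density in its sharing was not tested.

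The 18 shared pairs matched closely in position. The overlap was 21 to 35 nt long, with a median of 29 nt, and in 17 of 18 pairs the replicate 2 cluster lay wholly inside the replicate 1 cluster. The 5′ end was the same base in 8 pairs and the 3′ end in 9, and 4 pairs were identical. All 18 replicate 2 clusters ended in G, the base after which RNase T1 cuts, near the 94.6% of all intronic clusters in that library. How closely overlapping pairs of other genes match was not measured, so these values have no background. Replicate 1 had more reads in 10 pairs and replicate 2 in 8. The read numbers of the pairs had a Spearman correlation of 0.705, as a description over 18 positions of 1 gene.

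**Figure D4:**
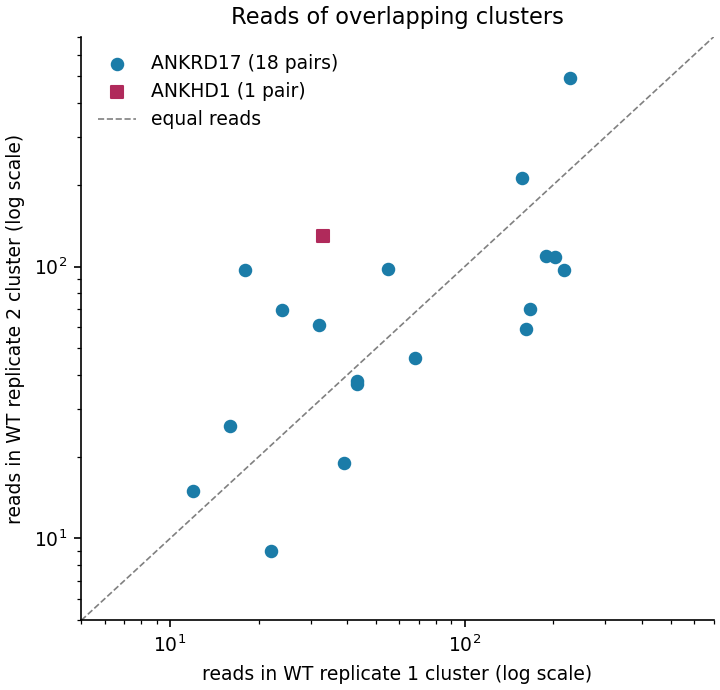
Reads of the replicate 1 cluster (horizontal axis, log scale) and of the overlapping replicate 2 cluster (vertical axis, log scale) for the 18 ANKRD17 pairs and the 1 ANKHD1 pair; the dashed line marks equal reads. Points lie on both sides of the line, 10 of the ANKRD17 pairs below it and 8 above.

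Most shared positions lay near the start of the gene. The first 30 kb held 11 of the 18 pairs, with 30.9% of ANKRD17 clusters in replicate 1 and 35% in replicate 2. The dense stretch from 140 to 160 kb held 4 pairs, with 25.5% and 22.5% of the clusters, so pairs were not in excess there. The sparse stretch from 90 to 140 kb held 0, with 4.55% and 7.50% of the clusters. In replicate 2, 11 of 14 clusters were shared from 0 to 30 kb, 1 of 6 from 30 to 60 kb and 2 of 6 from 60 to 90 kb. From 90 to 140 kb it was 0 of 3, from 140 to 160 kb 4 of 9 and beyond 160 kb 0 of 2. The share of the gene above that of introns thus rested mostly on the first 30 kb, a limit set after the positions were seen. The 22 ANKRD17 clusters of replicate 2 with no overlap lay at a median of 115 nt from the nearest replicate 1 cluster, with a range from 0 to 2886 nt. Of them, 5 were within 50 nt, or 22.7% (10.1 to 43.4), an interval that holds the 12.5% of unshared intronic clusters over all genes. The unshared ANKHD1 cluster of replicate 2 was 1947 nt from the nearest one in replicate 1.

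Conversion, the mark of crosslinking, was somewhat lower in ANKRD17 than in introns as a whole. Of the T events read in ANKRD17 clusters, 6.83% were converted in replicate 1 and 6.41% in replicate 2 (mean 6.62% ± 0.303, SD, n = 2), against 8.03% and 7.77% in intronic clusters of all genes. The median share of reads with a change was 84.2% and 96.5% per ANKRD17 cluster, against 94.1% and 97.6%. Clusters with a change in fewer than 50% of reads made up 8 of 110 (7.27%) and 1 of 40 (2.50%), against 3.74% and 3.15%. In ANKHD1, 7.41% and 6.81% of T events were converted and the median shares of reads were 92.3% and 100%. Every listed cluster had at least 2 converted positions, so these are levels among selected clusters.

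The share of converted reads was also set out by read number. In replicate 1, ANKRD17 clusters of 5 to 9 reads had a median of 100% converted reads, those of 10 to 29 reads 91.7%, those of 30 to 99 reads 77.3% and those of at least 100 reads 73.3%. Intronic clusters of all genes had the same order, at 100%, 95%, 90.2% and 72.7%. At 30 to 99 reads ANKRD17 was below the intronic median, and at 100 reads and more they were close. In replicate 2 the ANKRD17 medians were 100%, 95%, 96.9% and 73.4%, against 100%, 100%, 97.3% and 97.1%, so the widest gap there was at 100 reads and more, a class of 7 ANKRD17 clusters. Among the 18 shared positions the converted share was lower in replicate 1 in 12.

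C and T together made up most of the cluster bases in both paralogs, as in introns of all genes. T made up 42.6% and 44.6% of ANKRD17 cluster bases (mean 43.6% ± 1.40, SD, n = 2), against 40.4% and 42.1% in introns of all genes (41.2% ± 1.22). C made up 25.1% and 28.4%, and A 23.5% and 20.6%. G made up 8.79% and 6.45% (7.62% ± 1.66), against 9.99% and 9.78% (9.89% ± 0.153). Within each library the T share of ANKRD17 was higher than that of introns, by 2.24 points in replicate 1 and 2.50 points in replicate 2, with no test over 2 libraries. In ANKHD1, T was 42.2% and 40.0% and G only 4.44% and 3.33%, from 360 and 60 nt of cluster sequence.

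A cluster was called pyrimidine-rich where at least 75% of its bases were C or T. In replicate 1 this held for 25 of 110 ANKRD17 clusters, or 22.7% (15.9 to 31.4), against 28.7% of intronic clusters. In replicate 2 it held for 18 of 40, or 45% (30.7 to 60.2), against 32.2%. The gene lay below the background in one library and above it in the other, and both intervals hold the background. Pyrimidine-rich clusters were 7 of the 18 shared and 11 of the 22 unshared ones in replicate 2, and 4 of 18 and 21 of 92 in replicate 1. ANKHD1 had 3 of 11 and 0 of 2. No cluster of either gene had 75% or more purines, against 0.0327% and 0.0133% of intronic clusters.

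**Figure D5:**
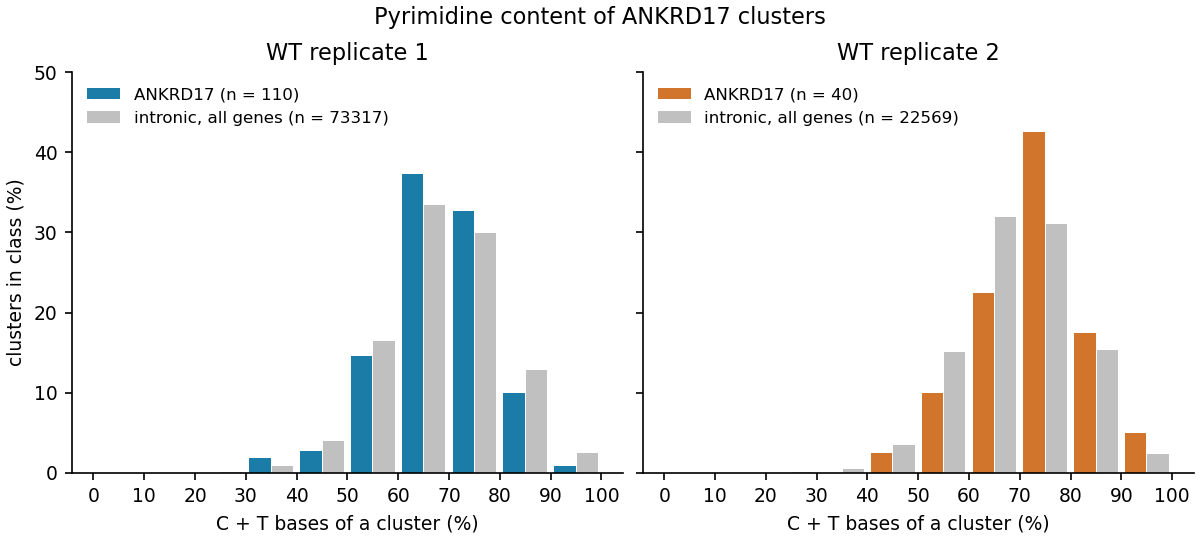
Distribution of the pyrimidine content (C plus T, % of bases, horizontal axis) of ANKRD17 clusters (coloured) and of intronic clusters of all genes (grey) in each WT library, as the percentage of clusters in classes of 10 points (vertical axis). The ANKRD17 medians are 68.6% and 73.3%, the intronic ones 68.6% and 69.6%.

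The least pyrimidine-rich clusters show the other end of the range. The lowest, at chr4:73115277-73115311, was 37.1% pyrimidine with 18 reads, and the next was 39.3% with 42 reads, of which 97.6% carried a T-to-C change. Both were seen in replicate 1 alone. In replicate 2 the lowest was 47.8% pyrimidine with 7 reads. The first is rich in A, while the other sequences hold more G than the clusters do as a whole.
ANKRD17, replicate 1, chr4:73115277-73115311, minus: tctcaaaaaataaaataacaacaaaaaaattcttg
ANKRD17, replicate 1, chr4:73187877-73187904, minus: tctctggtgtcaaaaaggttggggagca
ANKRD17, replicate 2, chr4:73206304-73206326, minus: tatcttggtggttgtgaacaatg

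Short words were counted on the transcript strand as the share of clusters that hold them at least once. Words that overlap each other were counted separately. ATCTT, a form of the core seen in earlier MATR3 work, was in 22 of 110 ANKRD17 clusters of replicate 1, or 20% (13.6 to 28.4), against 14.8% of intronic clusters, and in 5 of 40, or 12.5%, against 15.9% in replicate 2. TTCTT was in 34.5% and 42.5% of ANKRD17 clusters, against 30.6% and 32.0%. TTTCT was in 39.1% and 40.0%, against 32.4% and 33.1%, and TCTTT in 40.9% and 35.0%, against 30.7% and 32.8%. At least one of those last 3 words was in 60.9% (51.6 to 69.5) and 60% (44.6 to 73.7) of clusters, against 52.2% and 54.5%. Both of these intervals hold the background. The same is true of each single word above in both libraries, except TCTTT in replicate 1 (32.2 to 50.3), which lies above it.

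Words with G were rare, as in introns of all genes. GTGGC was in 1 ANKRD17 cluster of replicate 1 and 0 of replicate 2, and GGAGA in 0 of both, against 0.873% to 1.53% of intronic clusters. The intervals of all these counts hold that background, with upper limits of 3.37% to 8.76%. Among the 18 shared stretches, TTTCT was in 8, TTCTT and TCTTT in 7 each, ATCTT in 2, and neither G-containing word in any. ANKHD1 had TTCTT in 7 of 11 clusters and in 2 of 2. A word is a description of these letters and does not mark a contact.

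The paralogs shared no cluster sequence. Their clusters held 2740 distinct stretches of 15 nt in ANKRD17 and 216 in ANKHD1, of which 0 were common to both. No cluster of either gene had a sequence identical to that of a cluster elsewhere in the same lists. With so few ANKHD1 stretches a match was unlikely from the outset, and no other pair of genes was compared. The absence of a common stretch is therefore a description only.

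Genes with a cluster pattern most like that of ANKRD17 were found by the distance in log2(clusters + 1) over the 3 libraries. The nearest was ARIH1, a ubiquitin ligase, at a distance of 0.23, with 112, 34 and 0 clusters in replicate 1, replicate 2 and KO. CMSS1, a factor named for the ribosomal small subunit, followed at 0.29 with 107, 49 and 0. DLGAP1, a scaffold of the postsynaptic density, was at 0.32 with 129, 47 and 0, SMYD3, a lysine methyltransferase, at 0.41 with 85, 35 and 0, and PPFIA2, a liprin of the synapse, at 0.46 with 147, 35 and 0. They differ in length, so their densities differ: ARIH1 had 87.1 and 26.4 clusters per 100 kb, above ANKRD17, and SMYD3 11.2 and 4.62. The share of replicate 2 clusters found again was 38.2% in ARIH1, 26.5% in CMSS1, 28.6% in PPFIA2, 23.4% in DLGAP1 and 20% in SMYD3, beside 45% in ANKRD17.

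In the order of mean cluster number over the WT libraries ANKRD17 ranked 12 with 75. CMSS1, with 78, ranked 10, and PVT1, with 76.5, ranked 11. Next below ANKRD17 came POLA1, the catalytic subunit of DNA polymerase alpha, with 73.5, and ARIH1, with 73. Their order changes between the libraries: POLA1 had 98 and 49 clusters, CMSS1 107 and 49, PVT1 111 and 42, ANKRD17 110 and 40, and ARIH1 112 and 34. In KO, POLA1 had 2 clusters, PVT1 had 1 and the others had 0.

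The Hippo pathway list comprised 22 genes, among them the coactivators YAP1 and WWTR1, which both paralogs are described to assist, their DNA-binding partners TEAD1 to TEAD4 and the kinases STK3, STK4, LATS1 and LATS2. Of the 22, 19 had a cluster in replicate 1, 16 in replicate 2, 16 in both and 3 in KO. Of 20056 protein-coding genes 41.4% and 28.2% had a cluster in the WT libraries. Their shares with a cluster in both WT libraries or in KO were not computed, so those counts of the list have no background. The list's medians were 8 and 1.5 clusters per gene, or 9.18 and 1.98 per 100 kb, close to ANKHD1 and far below ANKRD17. Over all protein-coding genes the median density in replicate 1 was 0. The list was not tested as a set.

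TEAD1 had the most clusters of the list, 109, 37 and 1, nearly the numbers of ANKRD17, at 40.3 and 13.7 per 100 kb. Of its 37 replicate 2 clusters, 9 overlapped one of replicate 1. YAP1 had 9, 4 and 0 clusters, or 7.32 and 3.25 per 100 kb, and its paralog WWTR1 had 30, 8 and 0. Of the kinases, STK3 had 32, 16 and 2 clusters, STK4 22, 6 and 0, and LATS2 24, 5 and 0. TEAD2, TEAD3 and the scaffold gene SAV1 had no cluster in any library.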

How the data were processed

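PAR-CLIP clusters of 2 WT and 1 MATR3 KO library of HAP1 cells were used as the authors deposited them. Reads were handled with cutadapt 1.8.3 and Bowtie 1.1.2 on hg38 (GRCh38.p5), per the submitters' processing notes; the cluster caller, its filters and the annotation release are not given in the sources used here. Clusters were called per library, not on pooled reads. Read counts, distinct-read counts, converted-position counts and counts of converted and unconverted T events are whole numbers without normalisation, per the file headers and the values. The share of a cluster's reads with a T-to-C change is a deposited fraction, printed here as a percentage.

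Clusters were taken by the authors' gene name and kept their 1 annotated class. Members, word lists and gene lists were chosen with earlier results of these data known. Positions named are the overlapping WT pairs (up to 8 per gene by geometric mean of reads), the 3 strongest clusters per gene and library and every exonic cluster; the least pyrimidine-rich clusters and the abutting read-through pair were chosen after their values were seen. Gene lengths and 5′ ends come from RefSeq (GRCh38.p14); every cluster named ANKRD17 or ANKHD1 lay inside its gene's interval. The converted share of T events is converted over all T events, summed over clusters. Group values are means with SD over n = 2. The end in G was read from the sequences. The code for overlaps was checked on replicate 1 clusters shifted by less than their own length: 100% of overlaps planted among 27155 intervals were recovered. Such shifts always leave an overlap, and the other intervals were placed where no cluster lies. The check therefore covers the code alone and does not measure overlap by chance. Alternatives were a minimum of 10 reads or 3 converted positions, each WT library left out, other overlap rules, lists of equal length, a 65% pyrimidine limit and trimmed cluster ends. Python 3.11.15, numpy 2.4.6, pandas 2.3.3, scipy 1.17.1 and matplotlib 3.10.9 were used.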

Additional observations from a re-analysis of the deposited data

Results flagged for a closer look

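A signal outside the gene names ANKRD17 and ANKHD1 was found under the read-through name ANKHD1-EIF4EBP3. It had 4 clusters in replicate 1 and 1 in replicate 2, against 0 in the KO control, and most of them lie inside ANKHD1. The difference from KO was not tested, and a list of 842 KO clusters is too short to show it.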

How the results depend on the processing

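Of the 21 alternatives that keep both WT libraries, 15 stayed near the value reported and 6 moved, judged by a factor of 1.5 for the cluster number, by the counting interval for the overlap share and by the SD over libraries for the rest. With 2 libraries, a value from 1 of them always lies within that SD of their mean, so leaving a library out says nothing of stability and is given as a range. With at least 10 reads per cluster the density ratio of ANKRD17 over ANKHD1 was 16.6 ± 10.3 in place of 11.2. With at least 3 converted positions ANKRD17 had 41.5 clusters in place of 75. Its pyrimidine-rich share there was 56.5% ± 38.0 (SD over the 2 libraries) in place of 33.9%, and its converted share of T events 6.03% in place of 6.62%. The density ratio has no value at that setting, because replicate 2 has no such ANKHD1 cluster. A limit of 65% made 68.9% ± 8.68 of ANKRD17 clusters pyrimidine-rich. The pyrimidine-rich share of introns was not computed at either of these settings, so these shares have no background. Read from replicate 1 the share of overlapping ANKRD17 clusters was 16.4% in place of 45%. Leaving out each WT library in turn gave 40 to 110 clusters, a density ratio of 7.44 to 14.9, an intronic share of 99.1% to 100%, a T share of 42.6% to 44.6%, a pyrimidine-rich share of 22.7% to 45% and a converted share of 6.41% to 6.83%. Under the other overlap rules the share was 53.1% with at least 10 reads (introns 20.2%), 41.7% with at least 3 converted positions (5 of 12, 19.3 to 68.0, which holds the 25.3% of introns), 45% with 10 nt or 50% of the shorter cluster, and 32.5% with lists of equal length (introns 12.0%). Allowing a gap of 50 nt, a choice made after seeing the data, gave 57.5% (introns 30.2%). The cause of these moves was not tested. No paired analysis was possible because the KO label carries no replicate number and no test was made. Depth limits ANKHD1 most, with 2 clusters in replicate 2, and the KO library, where about 1 ANKRD17 cluster would be listed at the WT shares.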

Other observations

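The deposited fraction of reads ending in G did not follow the sequences on the minus strand, where ANKRD17 lies. Over all minus-strand clusters its mean was 1.62% in replicate 1, 1.79% in replicate 2 and 6.73% in KO, although 80.5%, 95.9% and 71.7% of those cluster sequences end in G. On the plus strand the means were 72.3%, 95.1% and 74.8%, with 67.2%, 93.1% and 72.5% of sequences ending in G. Minus-strand clusters whose sequence begins with G had means of 54.2%, 84.6% and 95.9%, against 0.613%, 0.413% and 0.417% for the others. The fraction was 50% or more in 0 of 110 and 1 of 40 ANKRD17 clusters and in 9 of 11 and 2 of 2 ANKHD1 clusters, a gene on the plus strand.

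Read from the sequences, 89 of 110 ANKRD17 clusters (80.9%) ended in G in replicate 1 and 39 of 40 (97.5%) in replicate 2, against 73.9% and 94.6% of intronic clusters. In ANKHD1 it was 8 of 11 and 2 of 2. Reads per distinct sequence in ANKRD17 were 7.99 and 15.5, near the intronic 7.51 and 17.6.

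Among the genes with at least 20 clusters in replicate 2, the share found again in replicate 1 was highest in WAC, at 61.9%, an adaptor of histone ubiquitination, and reached 57.7% in MATR3 itself, the gene of the precipitated protein.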
